A study of Mus musculus with 28 samples.

Results

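These are the SIRT7 ChIP-seq peaks of GS wild-type mouse embryonic fibroblasts (MEFs) that lay inside marked chromatin. SIRT7 is a sirtuin, an enzyme of the nucleus that uses NAD to take acyl groups off proteins such as histone H3. A peak was included when it lay on chromosomes 1 to 19 of the GS peak list and the chromatin state covering most of its bases in the WT-GS segmentation was U2, U3 or U4, together called marked here. The rule gave 331 of the 2272 autosomal GS peaks (14.6%, Wilson 95% interval 13.2 to 16.1%), out of 2671 GS peaks in all. The other 1941 autosomal GS peaks were U1 in WT-GS. The peaks were thus chosen by their measured state in WT-GS, which is given as a description only.

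The study compared SirT7-/- (KO) MEFs in GS and NT with wild-type (WT) MEFs in GS and NT. All were primary fibroblasts of strain 129s2 from 14.5 day embryos, used at passages 3 to 4. The labels expand neither GS nor NT, and the series title concerns glucose starvation. The 28 libraries were 4 SIRT7 ChIPs (WT only), 8 H3K27me3 ChIPs, 8 macroH2A1.1 ChIPs (named mH2A1) and 8 inputs. Each peak list and each of the 4 segmentations (KO-GS, KO-NT, WT-GS and WT-NT) stood for 2 replicates per target, so no value has a replicate error and read depth is unknown. There is no SIRT7 ChIP from KO cells, so listed peaks that do not need SIRT7 could not be recognised. The labels do not describe how the allele was made or whether replicates came from separate embryos.

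H3K27me3 is the repressive histone mark written by Polycomb repressive complex 2. It covers broad silent domains, often around developmental genes. MacroH2A1 is a histone H2A variant with a large macrodomain, and its 1.1 splice form can bind ADP-ribose. It is known from broad silent domains, including those with H3K27me3. Each segmentation was built from these ChIPs and assigned every 200 bp bin to a state from U1 to U4. The sources used here do not say what each state stands for. All coordinates are mm9, counted from 1. A marked bin in bulk chromatin can be marked in all cells or in a part of them, and these cannot be told apart.

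SIRT7 peaks in marked chromatin were mostly U2. In WT-GS 287 of the 331 were U2 (86.7%, interval 82.6 to 89.9%), 44 were U3 (13.3%, interval 10.1 to 17.4%) and 0 were U4. U2 held 0.555 peaks per Mb over 517 Mb of autosomal sequence, U3 0.212 per Mb over 208 Mb, and U1 1.14 per Mb over 1706 Mb. U4 took up 42.2 Mb in 114041 segments, of which the median spanned 200 bp, 6329 reached 1 kb and the longest spanned 13400 bp. Of the 331 peaks, 28 (8.46%) had any base in U4. U4 made up 5.50% of the autosomal bins marked in WT-GS, and why no peak was U4 by its widest state was not tested.

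The peaks lay wholly inside the marks in nearly all cases. Of the 331, 317 were marked over their whole width (95.8%) and 14 crossed a border with U1. A single state covered the whole peak in 287 (86.7%), made up of 250 of the U2 peaks and 37 of the U3 peaks. It did so in 1875 of the 1941 other peaks (96.6%). The rule had few close cases, ranked here by the gap in cover between the peak's leading marked state and U1. The peak just inside it lay on chromosome 2 from 60240542 to 60241446 and was 50.7% marked. The next ones inside were 66.1, 59.4, 59.5 and 60.8% marked. The peaks just outside it were 45.7, 45.5, 43.9, 42.6 and 45.8% marked, on chromosomes 7, 10, 8, 1 and 14. No autosomal GS peak had equal cover by U1 and a marked state.

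The marks at these peaks were kept in the other segmentations less often than over marked sequence as a whole. In KO-GS 219 of the 331 peaks were marked (66.2%, interval 60.9 to 71.0%), against 83.1% of all autosomal bins marked in WT-GS. In KO-NT 231 were marked (69.8%, interval 64.6 to 74.5%), against 79.4% of those bins. In WT-NT 245 were marked (74.0%, interval 69.0 to 78.4%), against 88.6% of those bins. All 3 intervals lay below the share of bins, and they cover counting error only. The mix of states differed, as 67.4% of these bins and 86.7% of the peaks were U2 in WT-GS. Of the U2 peaks alone 63.4% were marked in KO-GS, 69.3% in KO-NT and 73.5% in WT-NT. Of U2 bins 78.5% were marked in KO-GS, 76.6% in KO-NT and 85.6% in WT-NT. Windows of 1 kb, about as wide as the median peak, gave nearly the same values as bins, with 83.0% marked in KO-GS, 79.3% in KO-NT and 88.6% in WT-NT. Whether the difference from the bins exceeds the variation between cultures was not tested.

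Only part of the peaks kept 1 state throughout. In all 4 segmentations 142 peaks had the same state (42.9%, interval 37.7 to 48.3%), against 56.6% of bins marked in WT-GS. A further 31 were marked in all 4 with a change among U2 and U3, so 173 were marked throughout (52.3%, interval 46.9 to 57.6%), against 70.7% of bins. At the other end, 42 peaks were U1 in KO-GS, KO-NT and WT-NT alike (12.7%, interval 9.53 to 16.7%), against 5.56% of bins. These bins include all marked states. Of the U2 peaks alone 42.9% had the same state in all 4, against 58.7% of 1 kb windows that were U2 in WT-GS. Marked in all 4 were 50.9% of the U2 peaks and 65.4% of those windows, and U1 in the other 3 13.2 and 6.92%. Of the remaining patterns, 27 peaks were U1 in KO-NT alone, 26 in KO-GS alone, 25 in KO-GS and WT-NT, 19 in both KO segmentations, 12 in KO-NT and WT-NT, and 7 in WT-NT alone. The counts of these remaining patterns have no share of bins beside them, so they are not shown to be particular to the peaks.

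The U2 peaks and the U3 peaks differed in where they went. Of the 287 U2 peaks, 174 stayed U2 in KO-GS (60.6%, against 73.7% of U2 bins), 166 in KO-NT (57.8%, against 71.7%) and 204 in WT-NT (71.1%, against 81.7%). Most of the rest were U1, in 105 peaks in KO-GS, 88 in KO-NT and 76 in WT-NT. Of the 44 U3 peaks, 31 stayed U3 in KO-GS (70.5%, interval 55.8 to 81.8%, against 78.5% of U3 bins), 31 in KO-NT (70.5%, against 75.5%) and 27 in WT-NT (61.4%, interval 46.6 to 74.3%, against 75.0%). The intervals of the U3 peaks in state U3 held the share of U3 bins in KO-GS and KO-NT and lay just below it in WT-NT. As U1 there were 7 of the U3 peaks in KO-GS (15.9%, interval 7.93 to 29.4%, against 8.29% of U3 bins), 12 in KO-NT (27.3%, interval 16.3 to 41.8%, against 16.9%) and 10 in WT-NT (22.7%, interval 12.8 to 37.0%, against 5.83%). The interval of the U1 share lay above the share of bins in WT-NT and held it in KO-GS and KO-NT.

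**Figure D1:**
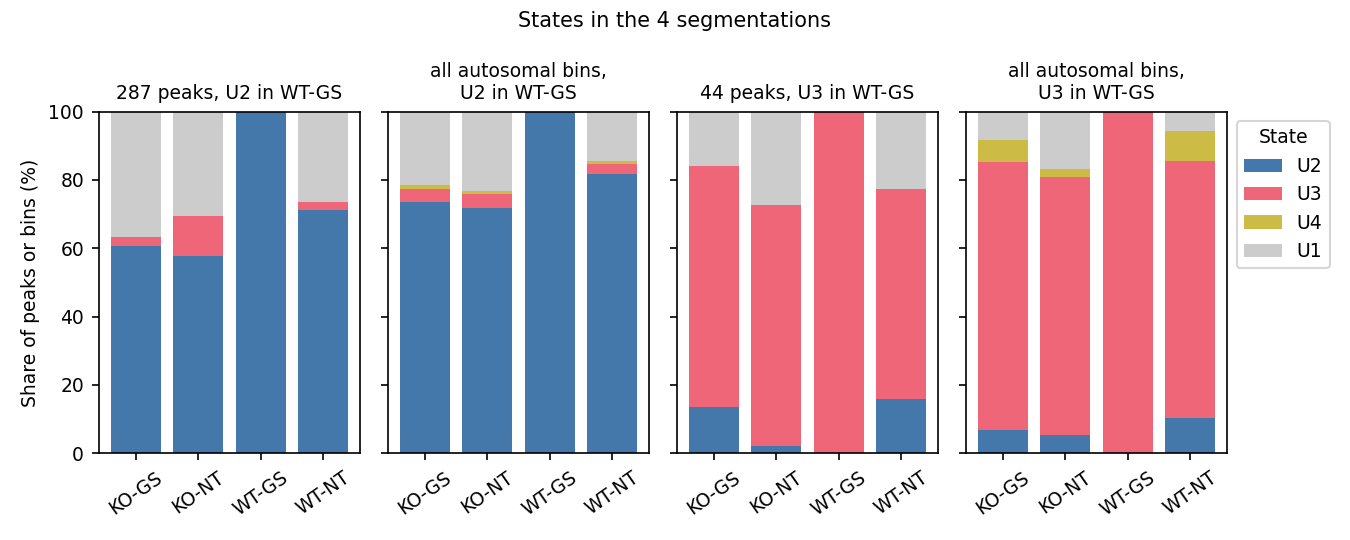
Share of peaks or of 200 bp autosomal bins in each state (percent, stacked bars) in the KO-GS, KO-NT, WT-GS and WT-NT segmentations, for peaks and bins that were U2 or U3 in WT-GS. The grey U1 part was taller for the U2 peaks (36.6% in KO-GS) than for the U2 bins (21.5%), and the WT-GS bar is fixed by the choice of peaks and bins.

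Segmentations that the rule did not use can be compared with one another. Between GS and NT in KO cells, 51 of the 331 peaks were U1 in KO-GS and marked in KO-NT (15.4%, interval 11.9 to 19.7%, against 7.12% of bins marked in WT-GS), and 39 were marked in KO-GS and U1 in KO-NT (11.8%, interval 8.74 to 15.7%, against 10.9% of bins). The 51 and the 39 are counts over the same 331 peaks, and their difference was not tested. The share of the 51 had an interval above that of the bins, and the share of the 39 one that held it. Of the 51 peaks, 40 had been U2 and 11 U3 in KO-NT. Between genotypes in NT, 46 peaks were U1 in KO-NT and marked in WT-NT (13.9%, interval 10.6 to 18.0%, against 12.9% of bins), and 32 were marked in KO-NT and U1 in WT-NT (9.67%, interval 6.93 to 13.3%, against 3.63% of bins). These comparisons share the KO-NT segmentation.

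KO-NT also gave U3 to peaks that were U2 in WT-GS. It did so at 33 of the 287 U2 peaks (11.5%, interval 8.31 to 15.7%), against 4.14% of U2 bins. In KO-GS 17 of these 33 were U2, 10 U1 and 6 U3, and in WT-NT 22 were U2, 7 U1 and 4 U3. The U3 segments at these 33 peaks had a median length of 2600 bp in KO-NT (exact binomial 95% interval of the median 2000 to 3400 bp), and 28 of the 33 spanned at most 5 kb (84.8%, interval 69.1 to 93.3%). Bins with that pair of states had a median of 3000 bp and a share of 71.6%, both within these intervals. Among the 1941 autosomal GS peaks in U1, 41 were U3 in KO-NT (2.11%, interval 1.56 to 2.85%), against 0.544% of U1 bins.

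For the U2 peaks, the share of marks was compared between the peak and its flanks. Within 0.4 kb of the midpoints of the U2 peaks 64.0% of bins were marked in KO-GS, 70.2% in KO-NT and 74.0% in WT-NT. At 5 to 10 kb away the shares were 70.8% in KO-GS, 73.4% in KO-NT and 76.1% in WT-NT. In KO-GS the share was lower at the centre than on either side, with 70.7% at lower and 70.9% at higher coordinates. In KO-NT the sides differed from each other, with 75.8% at lower and 71.1% at higher coordinates, the second close to the centre. In WT-NT they were 75.3 and 77.0%, the first close to the centre. Around all autosomal U2 bins of WT-GS the order was the opposite, with 78.5% marked within 0.4 kb and 71.4% at 5 to 10 kb in KO-GS, 76.6 and 70.5% in KO-NT, and 85.6 and 77.5% in WT-NT. The flanks of the U2 peaks were thus within 3 percentage points of the flanks of all U2 bins, while the centres were lower by 6 points or more. These distances were chosen after the profile had been seen, and the differences have no test.

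The U3 peaks had higher shares at the centre than in the flanks. Within 0.4 kb of their midpoints 85.2% of bins were marked in KO-GS, 72.2% in KO-NT and 80.1% in WT-NT, and at 5 to 10 kb 66.3% in KO-GS, 60% in KO-NT and 69.8% in WT-NT. Around all U3 bins the centres were 91.2% marked in KO-GS, 82.7% in KO-NT and 93.7% in WT-NT, and the flanks 74.4% in KO-GS, 67.0% in KO-NT and 78.4% in WT-NT. The U3 peaks were thus below the bins both at the centre and in the flanks. With 44 peaks the profile is coarse.

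**Figure D2:**
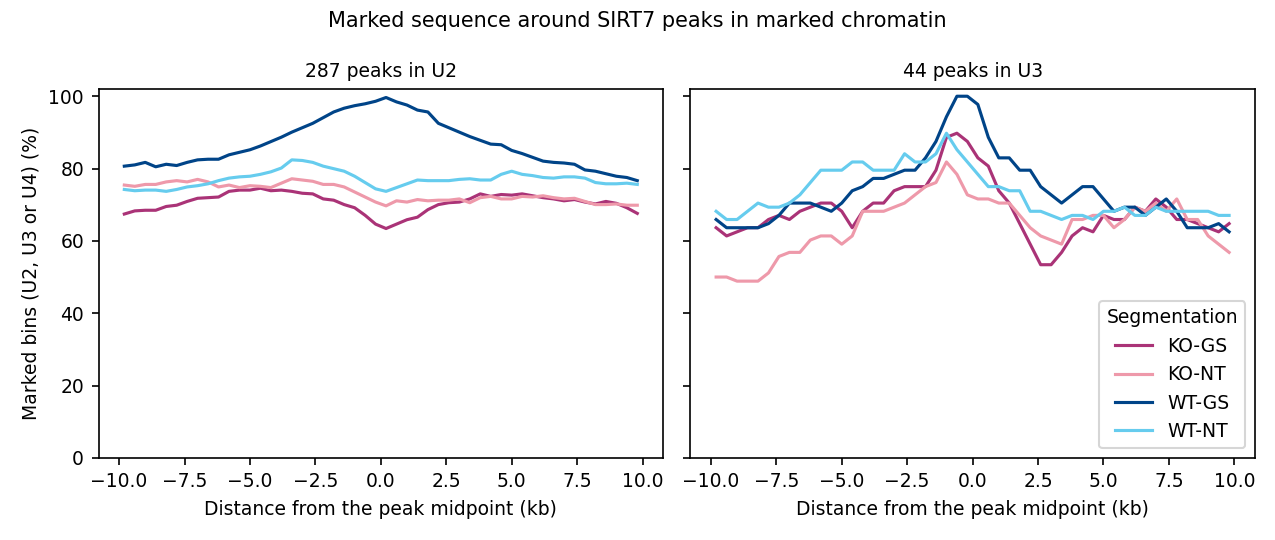
Share of 200 bp bins in U2, U3 or U4 (percent) against distance from the peak midpoint (kb, steps of 0.4 kb), for the U2 and the U3 peaks, with 1 line for each of the 4 segmentations. Around the U2 peaks the WT-GS line tops out near 100% at the midpoint because it chose the peaks, whereas the KO-GS line dips to 63.4%.

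Peaks that were U1 in another segmentation mostly lay in WT-GS domains that kept part of their marks. Most bins that were marked in WT-GS and U1 there did so too. The domain share includes the peak itself in the segmentation that sorted the peaks. A lower share around the U1 peaks than around the others is therefore built in and given as a description. In KO-GS the domains around the 112 U1 peaks were a median of 56.9% marked, against 96.3% around the 219 peaks still marked there. In KO-NT the medians were 59.7% around the 100 U1 peaks and 95.1% around the others, and in WT-NT 68.3% around the 86 U1 peaks and 98.9% around the others. At least 50% of the domain was still marked around 63 of the 112 in KO-GS (56.2%), 58 of the 100 in KO-NT (58.0%) and 55 of the 86 in WT-NT (64.0%). For all bins marked in WT-GS and U1 in the other segmentation these shares were 47.3% in KO-GS, 51.7% in KO-NT and 52.6% in WT-NT. The domain had no mark left around 17 peaks in KO-GS, 21 in KO-NT and 16 in WT-NT. The U1 run at such a peak had marks of the same domain on both sides for 52 of the 112 in KO-GS (46.4%, interval 37.5 to 55.6%, against 32.8% of such bins), 36 of the 100 in KO-NT (36.0%, interval 27.3 to 45.8%, against 34.6%) and 44 of the 86 in WT-NT (51.2%, interval 40.8 to 61.4%, against 29.3%). The other runs reached a border of the domain or beyond. The unbroken U1 run had a median of 14300 bp in KO-GS, 15200 bp in KO-NT and 11200 bp in WT-NT. Over all bins that were marked in WT-GS and U1 in the other segmentation, the median runs were 19600, 18400 and 19000 bp in that order. Runs of at most 5 kb held 24 of 112 peaks in KO-GS (21.4%, interval 14.8 to 29.9%, against 11.3% of bins), 10 of 100 in KO-NT (10.0%, interval 5.52 to 17.4%, against 11.9%) and 21 of 86 in WT-NT (24.4%, interval 16.6 to 34.5%, against 11.7%).

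Within the marked domains the peaks were spread much as the marked sequence itself. A domain is an unbroken run of U2, U3 and U4 bins in WT-GS, and the autosomes had 34818 of them, with a median length of 7800 bp. The 331 peaks lay in 314 domains. The domain around a peak had a median length of 66200 bp (interval of the median 58400 to 76600 bp), against 61800 bp for the domain around a marked bin. The midpoint of a peak lay a median of 11988 bp from the nearest border (interval 10214 to 15096 bp), against 12100 bp for marked bins. On a scale of 0 at a border to 100 at the middle of the domain the median was 48.7 (interval 43.1 to 55.8), against 50.0 for marked bins. Both intervals of lengths and distances held the values of the bins. For the 331 peaks together the medians thus showed neither a gathering at borders nor one at centres. Most of these peaks were U2, and the U3 peaks, given next, lay nearer to borders in bp than U3 bins. Under 1000 bp from a border lay 6.95% of the peaks and 8.08% of the bins, and under 10000 bp 44.1% of the peaks and 45.0% of the bins.

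**Figure D3:**
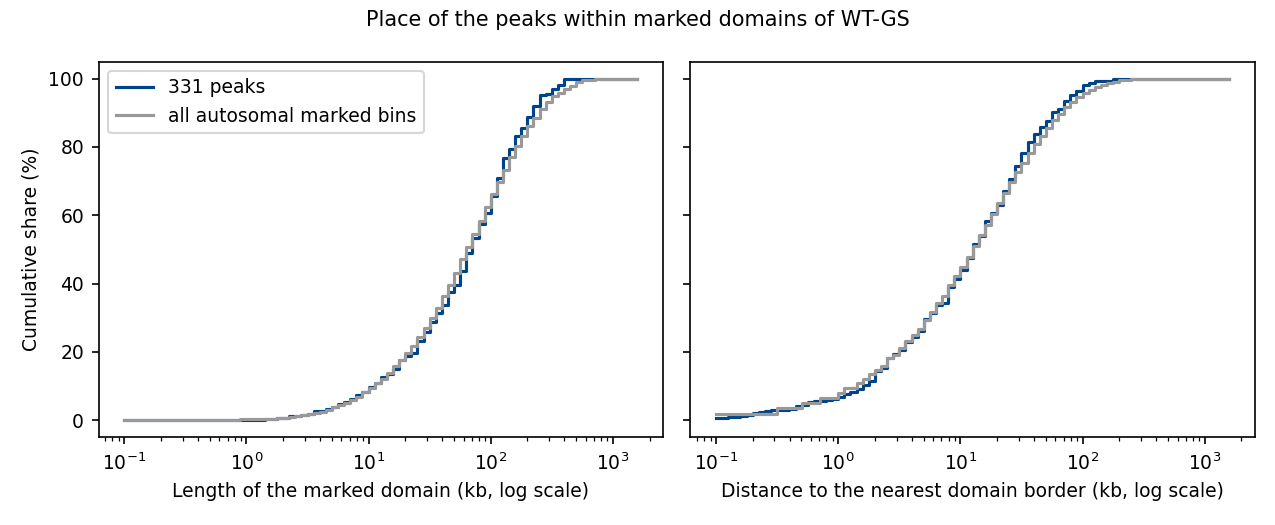
Cumulative share (percent) of the 331 peaks and of all autosomal marked bins by the length of their WT-GS domain and by the distance to its nearest border (kb, log axes). The curves of peaks and bins lie close together over the whole range, with medians of 66200 and 61800 bp for length and 11988 and 12100 bp for distance.

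U3 peaks had a shorter median domain than U2 peaks, with intervals that overlap. The median domain spanned 30800 bp for the U3 peaks (interval 22400 to 66000 bp), against 51600 bp for U3 bins, and 69800 bp for the U2 peaks (interval 60800 to 82400 bp), against 63800 bp for U2 bins. The midpoints of the U3 peaks lay a median of 5192 bp from a border (interval 2267 to 7414 bp), against 9300 bp for U3 bins, and those of the U2 peaks 14060 bp (interval 11235 to 17110 bp), against 12700 bp for U2 bins. Both intervals of the length held the value of the bins. The interval of the distance lay below the value of the bins for the U3 peaks and held it for the U2 peaks. On the scale of 0 to 100 the U3 peaks had a median of 40.2 (interval 23.5 to 59.6), against 48.1 for U3 bins. The domains of the U2 peaks had a median of 97.4% U2 (lower quartile 86.8%), and 60 of the 287 were U2 throughout. Those of the U3 peaks had a median of 75.6% U3, 15.5% U2 and 4.81% U4. Each domain holds the state of its peak by the choice of peaks. No values of bins stand beside these shares, so they are a description only.

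The density of peaks changed little with the length of the domain. It was 0.439 per Mb of marked sequence in domains under 5 kb, 0.406 from 5 to 20 kb, 0.384 from 20 to 50 kb, 0.487 from 50 to 100 kb, 0.502 from 100 to 200 kb and 0.348 above 200 kb. Since long domains hold more sequence, 33 of the 368 domains above 200 kb had a peak (8.97%), against 12 of the 13353 under 5 kb (0.0899%).

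Marks were kept less often in short domains, and the peaks were below the bins in each class of length. In domains under 20 kb 22 of 62 peaks were marked in KO-GS (35.5%, interval 24.7 to 47.9%, against 59.95% of bins), 22 in KO-NT (35.5%, against 54.1%) and 28 in WT-NT (45.2%, interval 33.4 to 57.5%, against 70.4%). In domains of 20 to 100 kb 110 of 155 were marked in KO-GS (71.0%, against 84.5%), 112 in KO-NT (72.3%, against 80.6%) and 122 in WT-NT (78.7%, against 90.3%). In domains of 100 kb or more 87 of 114 were marked in KO-GS (76.3%, interval 67.7 to 83.2%, against 94.7%), 97 in KO-NT (85.1%, against 92.4%) and 95 in WT-NT (83.3%, interval 75.4 to 89.1%, against 96.9%). These classes were chosen after the shares over all lengths had been seen, and the bins are those of all marked states together.

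Peaks marked in all 4 segmentations lay deep in long domains. Marked bins as a whole were also kept more often in long domains (in KO-GS 59.95% under 20 kb and 94.7% from 100 kb). The medians below have no value of bins beside them, so they are not shown to be particular to the peaks. The 173 such peaks had a median domain of 92200 bp and a median border distance of 19388 bp. The 42 peaks that were U1 in the other 3 had medians of 15300 and 2676 bp, and the 116 in between 52000 and 8888 bp. Widths and scores differed less, with median widths of 979 bp for the 173, 1146 bp for the 116 and 1012 bp for the 42, and median scores of 632, 628 and 598, whose intervals overlapped.

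The peaks were somewhat narrower than the other autosomal GS peaks and had similar scores. Their median width was 1055 bp (interval 985 to 1124 bp; range 151 to 4341 bp), against 1208 bp for the other 1941 (interval 1164 to 1248 bp; range 164 to 11787 bp). With the autosomal GS peaks split by width into 4 groups of nearly equal size, 18.1% of the narrowest (151 to 772 bp) were in marked chromatin, then 16.1, 13.5 and 10.6% up to the widest (1789 to 11787 bp). The first and last of these shares had intervals of 15.2 to 21.5% and 8.30 to 13.4%, which do not overlap. U2 peaks had a median width of 1084 bp and U3 peaks 854 bp (interval 649 to 1009 bp). The authors deposited a score with each peak, a whole number of at most 1000. Its median was 628 in marked chromatin (interval 614 to 645) and 630 among the other peaks (interval 624 to 635), and the share of peaks in marked chromatin ran between 13.9 and 15.5% over 4 groups by score. The highest score, 1000, was reached by 22 autosomal GS peaks, of which 1 was in marked chromatin.

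Among the U3 peaks the narrow ones had the high scores. Spearman's rho between width and score was -0.49 over the 44 U3 peaks, -0.03 over the 287 U2 peaks and 0.14 over the 1941 others. These are descriptions across peaks of 1 list, and the score and the width come from the same reads.

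**Figure D4:**
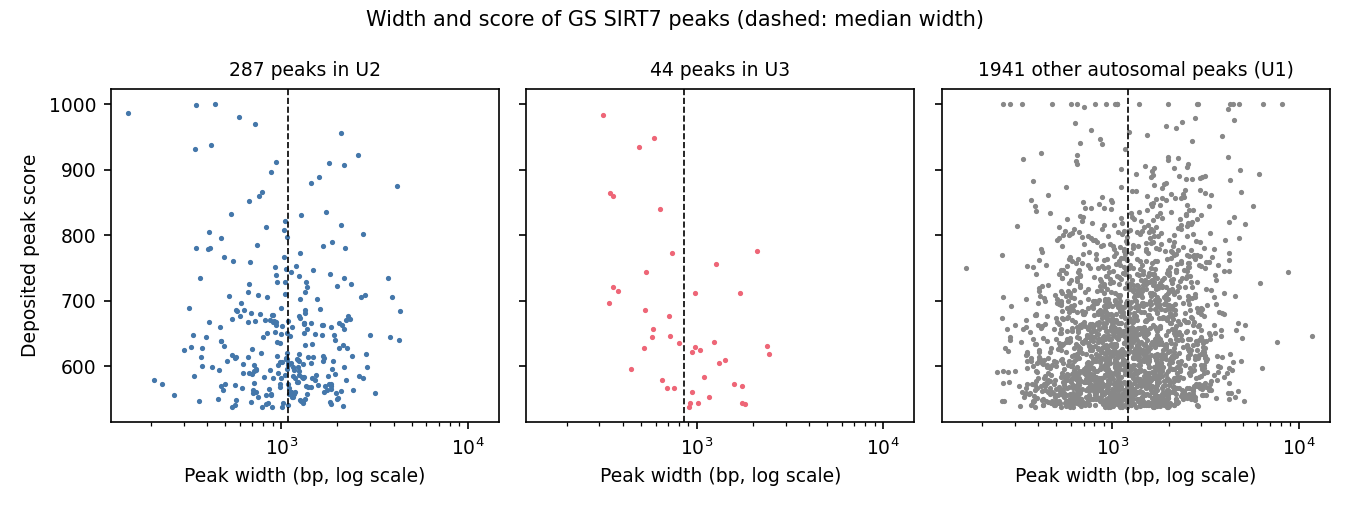
Deposited score against width (bp, log axis) of each autosomal GS peak, for peaks in U2, in U3 and in U1 of WT-GS, with the median width dashed. The U3 peaks with scores above 800 are all narrower than the U3 median of 854 bp, and peaks wider than 4341 bp occur among the U1 peaks alone.

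The 5 peaks with the highest scores all overlapped a peak of the NT list. They lay on chromosome 9 from 87991097 to 87991534 (score 1000), on chromosome 9 from 62456289 to 62456637 (998), on chromosome 1 from 12634816 to 12634966 (986, and the narrowest of all at 151 bp), on chromosome 7 from 105208414 to 105208728 (984) and on chromosome 6 from 125826777 to 125827372 (981). The first 3 were U2 in all 4 segmentations, in nearly pure U2 domains of 111200, 81800 and 119200 bp. The chromosome 7 peak was 59.4% marked, in a U3 domain of 3200 bp, and U1 in the other 3 segmentations. The chromosome 6 peak was U2 in KO-GS and WT-GS and U1 in KO-NT and WT-NT. The next 5 by score did not overlap an NT peak and lay on chromosomes 10 (from 57158691, score 969), 17 (from 24922689, 956), 11 (from 17862984, 949), 3 (from 57835442, 937) and 11 (from 3904874, 934).

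In all, 8 of the 331 peaks overlapped an NT peak (2.42%, interval 1.23 to 4.70%), against 1.41% of all autosomal GS peaks and 24 of the 1941 others (1.24%, interval 0.832 to 1.83%). The intervals overlap, and whether the shares differ was not tested. The 8 matched 8 of the 58 autosomal NT peaks (13.8%). The other 3 of these peaks lay on chromosome 1 from 45007923 to 45008265 (score 931), on chromosome 13 from 40027039 to 40027839 (645) and on chromosome 2 from 60240542 to 60241446 (538). The 8 peaks had a median width of 393.5 bp and a median score of 982.5, so they were narrow and mostly high in score. Of the 8, 6 were marked in all 4 segmentations, against 52.3% of all 331 peaks and 70.7% of bins marked in WT-GS. The 24 others that overlapped an NT peak have no such values beside them. These traits are thus not shown to be particular to peaks in marked chromatin. Each of the 8 shared at least 88.6% of the shorter peak with its NT partner.

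Among the U3 peaks, the 10 with the highest scores ran from 984 to 744. The peaks on chromosome 11 from 3904874 to 3905364 (934), on chromosome 1 from 34809647 to 34809988 (865) and on chromosome 5 from 115624734 to 115625089 (859) were U3 in all 4 segmentations, in domains of 107600, 28000 and 66000 bp. Those on chromosome 1 from 59137518 (840), chromosome 10 from 62600283 (775) and chromosome 13 from 8926585 (756) were U3 in KO-GS, KO-NT and WT-GS and U1 in WT-NT. Those on chromosome 7 from 105208414 (984), chromosome 11 from 17862984 (949) and chromosome 1 from 69980071 (772) were U3 in WT-GS and U1 elsewhere, all in domains of 3200 bp or less. The remaining one, on chromosome 10 from 51722057 (744), was U1 in KO-NT alone.

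The 5 widest peaks were all U2. They were the peaks on chromosome 13 from 92849024 to 92853364 (4341 bp, U1 in KO-GS, U2 in KO-NT and U1 in WT-NT), chromosome 4 from 58716064 to 58720333 (4270 bp), chromosome 5 from 107751412 to 107755579 (4168 bp, U1 in KO-GS, U3 in KO-NT and U2 in WT-NT), chromosome 9 from 51318157 to 51322095 (3939 bp) and chromosome 13 from 104480001 to 104483851 (3851 bp). The chromosome 4, chromosome 9 and second chromosome 13 peaks were U2 in all 4 segmentations. The chromosome 9 peak lay in the longest domain that held a peak, of 376200 bp.

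The peaks ranked farthest from a border are listed as examples, and among them only the chromosome 1 peak was U1 in any segmentation. No share of bins at such depths stands beside them, so whether peaks far inside a domain keep their marks more often was not tested. The 2 farthest from a border were neighbours on chromosome 18, from 78446865 to 78448130 and from 78448138 to 78449270, 162103 and 160897 bp inside a domain of 371800 bp. They lie 7 bp apart, and both were U2 in all 4 segmentations. The peak on chromosome 1 from 185636689 was 116950 bp inside its domain, U1 in KO-GS and U2 in the rest. The peak on chromosome 14 from 59413898 was 114014 bp inside and U3 in KO-NT alone. The peak on chromosome 2 from 28212566 was 110490 bp inside and U3 in all 4.

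Apart from the U3 peaks on chromosomes 7 and 11 named above, the highest scores among the 42 peaks that were U1 in the other 3 segmentations belonged to U2 peaks. They lay on chromosome 7 from 102088264 to 102089018 (860, in a domain of 2200 bp), chromosome 18 from 14164544 to 14167277 (801, in a domain of 74400 bp) and chromosome 4 from 93526639 to 93528512 (790, in a domain of 54200 bp). The domain of the first was unmarked throughout in KO-GS, KO-NT and WT-NT. Of the 74400 bp domain on chromosome 18, 79.3% was still marked in KO-GS, 86.3% in KO-NT and 78.5% in WT-NT, and of the 54200 bp domain on chromosome 4, 32.1% in KO-GS, 69.4% in KO-NT and 68.6% in WT-NT.

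The peaks in marked chromatin were mostly single. Within 100 kb of another GS peak lay 78 of the 331 (23.6%, interval 19.3 to 28.4%), against 673 of the 1941 others (34.7%, interval 32.6 to 36.8%). Of the 331, 289 had no second marked peak within 100 kb, 18 pairs did, and 2 groups had 3. One group spanned 25.3 kb on chromosome 13 from 5181520 to 5206769, inside 1 domain, and all 3 of its peaks were marked in all 4 segmentations. The other spanned 153 kb on chromosome 14 from 23821924 to 23975050, in 3 domains, with 2 of its 3 peaks marked in KO-GS and all 3 in KO-NT and WT-NT. Domains with more than 1 peak numbered 16 and held 33 peaks, among them neighbours such as the chromosome 18 pair, and 17 of the 331 lay within 1 kb of another GS peak.

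All autosomes carried such peaks, from 6 on chromosome 19 to 35 on chromosome 13. As a share of the autosomal GS peaks of the chromosome they were most frequent on chromosomes 15 (26.1%, 23 of 88), 13 (24.0%, 35 of 146), 18 (22.1%, 19 of 86) and 16 (21.1%, 16 of 76), and least on chromosomes 7 (7.32%, 12 of 164) and 8 (8.51%, 8 of 94). The share lay below the marked share of the chromosome on 19 of 19 autosomes. Per Mb of marked sequence the mean over chromosomes was 0.432 (SD 0.156), from 0.198 on chromosome 8 to 0.778 on chromosome 13. Chromosomes 3, 9, 12, 14 and 19 had no U3 peak.

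**Figure D5:**
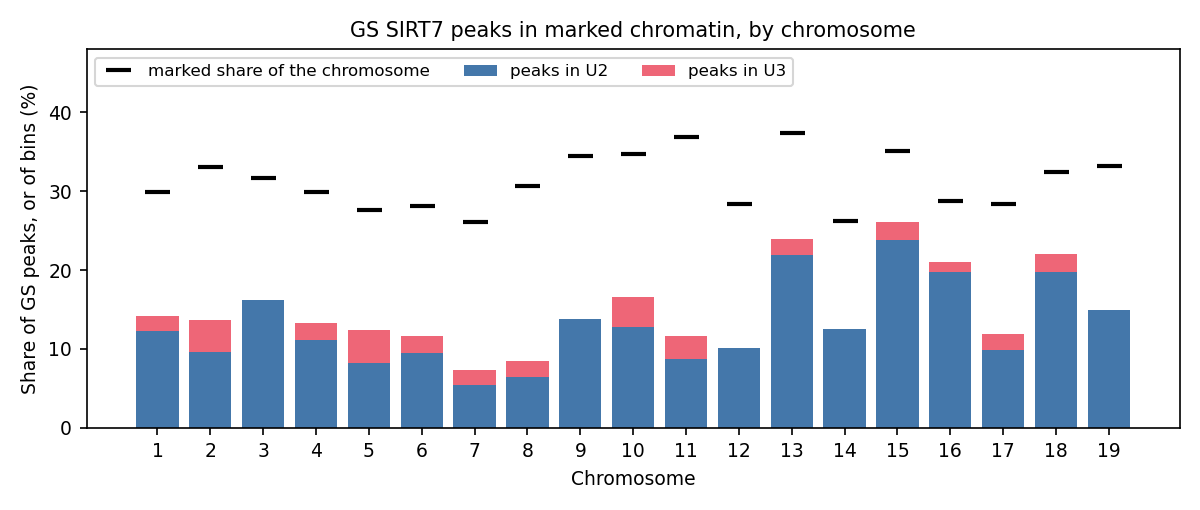
Share of each autosome's GS peaks that lay in U2 or U3 of WT-GS (percent, stacked bars) and marked share of the chromosome's bins (percent, black dashes). The bars stay below the dashes on all 19 autosomes and come nearest to them on chromosomes 15 and 16.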

How the data were processed

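Per the submitters' processing notes, MACS 1.4.2, Bowtie and deepTools 2.4.2 were among the tools used, and mm9 and hg19 were the builds, without roles. The last segmented base of chromosome 1 was 197195400, the mm9 length rounded down to 200 bp. The authors deposited a score with each peak, whose formula the sources used here do not give. The state names, U1 to U4 in 200 bp bins, are as deposited, from a tool the sources used here do not name. Per the labels, each list or segmentation stands for both replicates.

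With Python 3.11.15, numpy 2.4.6 and scipy 1.17.1, the state with the most bases in a peak was assigned to it, ties to the lower number. Shares have Wilson 95% intervals, and medians have exact binomial 95% intervals. Both cover counting error only and treat peaks as independent. No test was run, because no value has replicates. For all peaks together the comparison values are those of all autosomal bins marked in WT-GS, without matching the mix of U2, U3 and U4. For the U2 peaks or the U3 peaks alone they are those of bins of the same WT-GS state. Overlap with NT peaks required 1 bp. The functions were tested on simulated segmentations with known answers. The peaks, splits and lists were chosen with earlier results of these data known. The 1 kb windows, classes of domain length, centre and flank shares, runs inside domains and runs of U1 or U3 at the peaks were added after values had been seen. Named peaks followed fixed ranks: the 10 highest scores, 5 widest, 5 farthest from a border, all that overlap an NT peak, 5 on each side of the rule, the 10 U3 peaks of highest score, the 5 highest scores among those U1 elsewhere, and groups of 3 or more within 100 kb. No genome or annotation in mm9 was used here, so genes and sequences at the peaks were not analysed.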

Additional observations from a re-analysis of the deposited data

Results flagged for a closer look

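Chromosome X was outside the choice of peaks. Of its 396 GS peaks, 21 were marked in WT-GS (5.30%, Wilson 95% interval 3.49 to 7.97%), 12 as U2 and 9 as U3. The share is above 0.758%, the limit taken for a count of 0 (3 counts in 396). That limit only sets the count apart from 0. The X peaks are given because these data enter no comparison above. Of the bins of X, 16.3% were marked in WT-GS. On the autosomes 14.6% of GS peaks and 31.0% of bins were marked.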

How the results depend on the processing

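Of 41 values recomputed under 7 alternatives, 39 stayed within the 95% interval of the reported value, or for counts within 1.5 times. The alternatives were the state of the midpoint bin, wholly marked peaks only, short segments joined, the upper 50% of peaks by score, peaks within 100 kb counted once, U1 of up to 1 kb bridged, and overlap of 50% of the shorter peak. With the upper 50% by score the number of peaks in marked chromatin was 165, by construction, and 72.1% of them were marked in KO-GS in place of 66.2%; the cause was not tested. That value still lies below the 83.1% of bins. The share marked ranged from 65.4 to 72.1% in KO-GS, 68.6 to 71.0% in KO-NT and 73.1 to 78.2% in WT-NT. With short segments joined the bins gave 82.8% in KO-GS, 79.2% in KO-NT and 88.4% in WT-NT. No paired analysis was possible because each list and segmentation pools its replicates. For the same reason no replicate could be left out.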
